A study of Mus musculus with 18 samples.

Results

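The ATP-binding cassette (ABC) transporter genes and the organic anion and cation transporter genes of the Slco and Slc22a families were located in lists of chromatin regions from mouse liver. The set was every protein-coding gene on chromosomes 1 to 19 (mm10, GENCODE vM21) with a symbol formed of Abca to Abcg, Slco or Slc22a and a number. It contained 87 of 20807 genes, of which 48 were ABC genes, 14 were Slco genes and 25 were Slc22a genes. The choice rested on symbols, not on any measured value. Lamin B1 and H3K9me3 were profiled by ChIP-Seq (chromatin immunoprecipitation followed by sequencing) in livers of wild-type male C57BL/6 mice aged 3 months (young) and 21 months (old), with 2 replicates per antibody and age. Foxa2 was profiled in livers of Zmpste24 KO males and WT control littermates of strain C57BL/6 aged 12 weeks, with 3 replicates per genotype. The mutants are null for Zmpste24, the metalloprotease that completes the processing of prelamin A, and are thus young mice with a lamina defect in all tissues, not old mice. Replicates had been merged before regions were called, and each of the 6 lists gives positions alone, without a signal or score and without values for single replicates. For this reason no test between conditions was possible, and counts of members are set beside the share of all 20807 genes that met the same criterion.

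Hepatocytes use some of these transporters to move bile salts, bilirubin conjugates, sterols, drugs and organic ions between blood, cytoplasm and bile. A group of ABC proteins exports substrates with energy from ATP hydrolysis across the canalicular membrane into bile. Other ABC proteins belong to other membranes or to the cytosol. In hepatocytes, Slco and Slc22a proteins carry organic anions and cations mostly into the cell across the sinusoidal membrane. Lamin B1 is a structural protein of the nuclear lamina, and chromatin in contact with it is often silent. H3K9me3 is a histone mark of heterochromatin. Foxa2 is a forkhead pioneer factor that can bind closed chromatin and takes part in the control of bile acid homeostasis in the liver.

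Lamin B1 domains covered 18.9% of chromosomes 1 to 19 in young and 37.8% in old livers, and contained the start sites of 38.0% and 65.7% of all protein-coding genes, so they were not gene-poor regions. H3K9me3 regions covered 23.4% and 25.0% of the same chromosomes. The age of the H3K9me3 lists is known from their names alone. They hold 2784 young and 2496 old regions on all chromosomes. The study describes larger H3K9me3 sets, so these lists may be another set of calls, and the absence of a region refers to these lists. By the read totals in the study's supplement, H3K9me3 was sequenced more deeply in old livers and lamin B1 more deeply in young livers, and the part of depth in the calls was not tested. As a check of the tissue, 9 of 10 hepatocyte genes fixed for this purpose could be matched to the annotation, and all 9, among them Alb, Ttr and Fga, had a WT Foxa2 site in the gene body or within 50 kb. Apoa1 had no site in the mutants, and the other 8 had a site in both genotypes.

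The following sequences show Foxa2 sites at liver transporters, chosen to cover sites found in both genotypes, sites called in the mutants alone, and sites with and without a forkhead word. Each is a stretch of 120 bases of the plus strand of GRCm38 (mm10), read 5′ to 3′ around the forkhead word closest to the middle of the site, or around the middle where no word was found. Capitals mark the forkhead word TGTTTAC, as well as the related words TGTTTGC, next TATTTAC, and finally TATTTGC, on either strand. A word is a match of letters and not evidence of binding.
Abcg5 and Abcg8, intron of Abcg8, both genotypes, chr17:84689515-84689634: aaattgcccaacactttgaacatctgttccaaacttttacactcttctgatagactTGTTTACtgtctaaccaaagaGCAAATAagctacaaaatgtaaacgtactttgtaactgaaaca
Abcc2, intron, both genotypes, chr19:43792672-43792791: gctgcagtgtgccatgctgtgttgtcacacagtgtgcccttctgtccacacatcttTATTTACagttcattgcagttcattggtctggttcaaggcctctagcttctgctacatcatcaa
Abcc2, intron, Zmpste24 KO only, chr19:43797228-43797347: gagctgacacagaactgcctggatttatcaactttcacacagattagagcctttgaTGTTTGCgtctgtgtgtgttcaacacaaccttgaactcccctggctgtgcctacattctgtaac
Abcb1a, intron, Zmpste24 KO only, chr5:8672849-8672968: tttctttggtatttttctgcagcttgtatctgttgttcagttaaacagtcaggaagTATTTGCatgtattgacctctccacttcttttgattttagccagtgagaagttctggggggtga
Slco1b2, intron, Zmpste24 KO only, chr6:141644459-141644578: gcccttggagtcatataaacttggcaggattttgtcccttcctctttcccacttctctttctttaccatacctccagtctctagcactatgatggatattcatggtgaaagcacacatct
Slc22a26, intergenic, Zmpste24 KO only, chr19:7802976-7803095: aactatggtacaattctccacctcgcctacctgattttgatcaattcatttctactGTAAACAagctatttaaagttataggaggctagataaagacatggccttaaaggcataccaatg
The site in the intron of Abcg8, within 50 kb of Abcg5, holds TGTTTAC and, on the other strand, TATTTGC. At Abcc2 the shared site has TATTTAC and the mutant site has TGTTTGC, and the Abcb1a site has TATTTGC. The Slco1b2 site contains none of the 4 words. A fixed rule gave 8 sites at canalicular and uptake genes, those nearest to the gene start first. Among those not printed, the Abcb4 and Abcg2 sites hold none of the words, and another mutant site of Abcc2 holds TATTTAC. At Slc22a26, which was added after its values were seen because its site lies at the start of the gene, TGTTTAC reads on the minus strand.

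Start sites of 21 members (24.1%, 95% Wilson interval 16.4 to 34.1%, counting error only) lay inside a lamin B1 domain in young livers, against 38.0% of all genes. In old livers, 53 member start sites (60.9%, interval 50.4 to 70.5%) lay inside a domain, against 65.7% of all genes. There were 18 members inside at both ages (33.5% of all genes), 35 in old livers only (32.2% of all genes), 3 in young livers only (4.49%) and 31 at neither age (29.8%). Counted by gene, the young share of member start sites was below that of all genes. The share with lamin B1 in old livers alone, 40.2%, had an interval (30.6 to 50.7%) that contains the background. Counted by gene bodies that touch a domain, 28 members (32.2%, interval 23.3 to 42.6%, against 40.9% of all genes) were called at 3 months, and the interval contains the background. The same count at 21 months was 53 members, beside 68.3% of all genes. By loci, 17 of 55 had a start inside a young domain. Members were long genes, with a median of 58.5 kb against 17.6 kb for all genes, and the part of gene length in these counts was not tested.

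**Figure D1:**
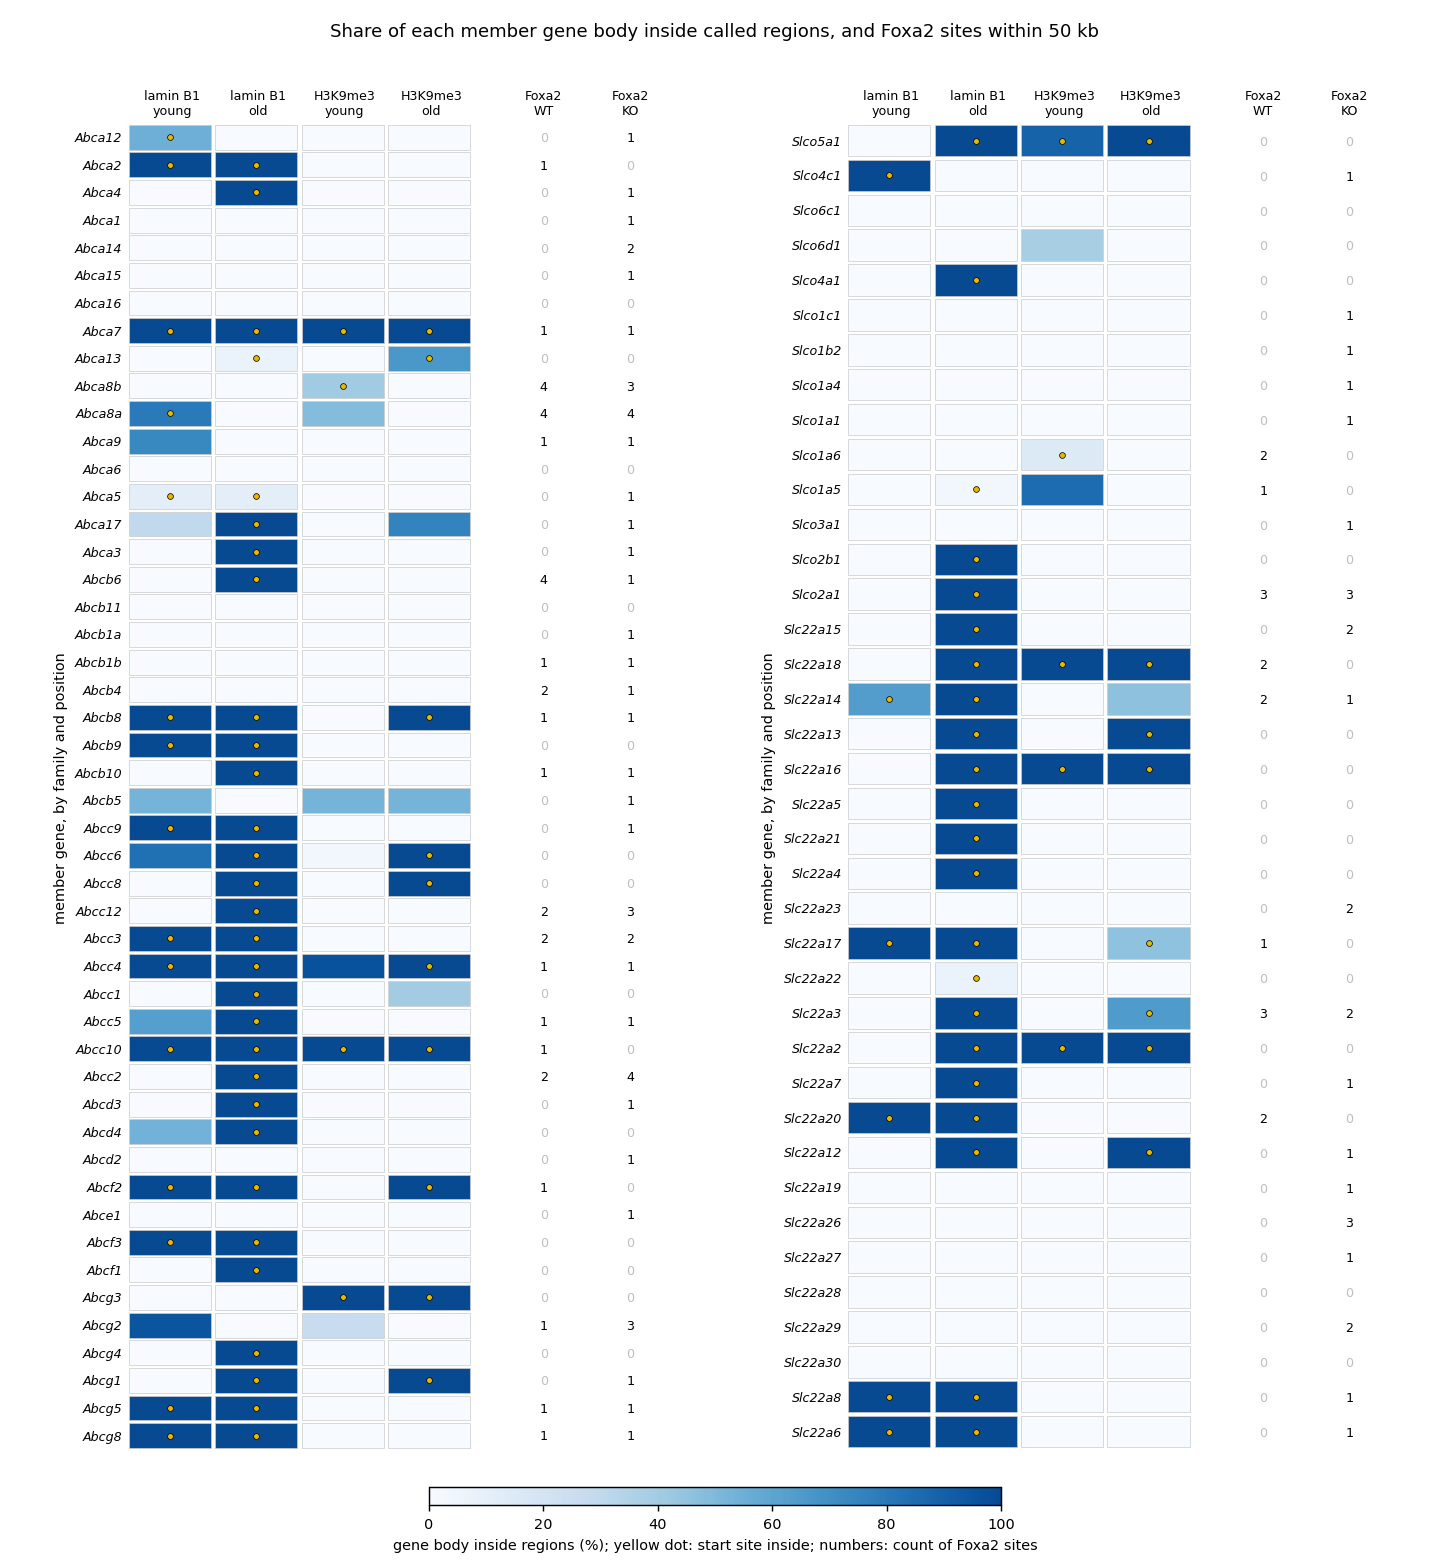
Rows are 86 of the 87 members by family, shading gives the percent of the gene body inside the lamin B1 and H3K9me3 regions of each age, a yellow dot marks a start site inside a region, and numbers count Foxa2 sites in the body or within 50 kb in WT and Zmpste24 KO livers. Most bodies were covered either wholly or not at all, and 52 of these 86 start sites carry a dot in the old lamin B1 column against 21 in the young column.

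Most gene bodies were in a single state. In young livers 17 members lay wholly inside domains (34.6% of all genes) and 11 were cut by a domain edge (6.34% of all genes). In old livers 49 lay wholly inside (62.4% of all genes) and 4 were cut (5.97%), which were Abca13, Abca5, Slco1a5 and Slc22a22. The old domains that touched members had a median length of 1560 kb and ranged from 120 to 8550 kb, whereas the young ones had a median of 420 kb and ranged from 60.0 to 1360 kb. At least 90% of the body was in old and at most 10% in young domains for 28 members (29.5% of all genes). The 5 longest of these were Abca4 (136 kb), the retinoid flippase of photoreceptors, Slco5a1 (126 kb), Abcc1 (114 kb), Slco2a1 (107 kb), the prostaglandin transporter, and Abcc12 (98.4 kb), each with 0% of its body in young and 100% in old domains. The reverse was found for 2 members (3.31% of all genes), Abcg2 and Slco4c1.

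H3K9me3 was present at 9 member start sites in young livers (13.6% of all genes) and at 19 in old livers (25.7%). Of these, 7 were marked at both ages (7.45% of all genes), 2 in young livers only (6.19%) and 12 in old livers only (18.2%). The members marked only in young livers were Abca8b, a transporter of the A subfamily, and Slco1a6. The 5 longest of those marked only in old livers were Abca13, Abcc4, Slc22a3, Abcc8 and Abcc6. Lamin B1 and H3K9me3 were both absent from the start in young and both present in old livers at 8 members (9.26% of all genes). Among the 31 start sites outside lamin B1 domains at both ages, 28 were also free of H3K9me3 at both ages (90.3%, interval 75.1 to 96.7%, against 77.7% of all genes in that state).

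**Figure D2:**
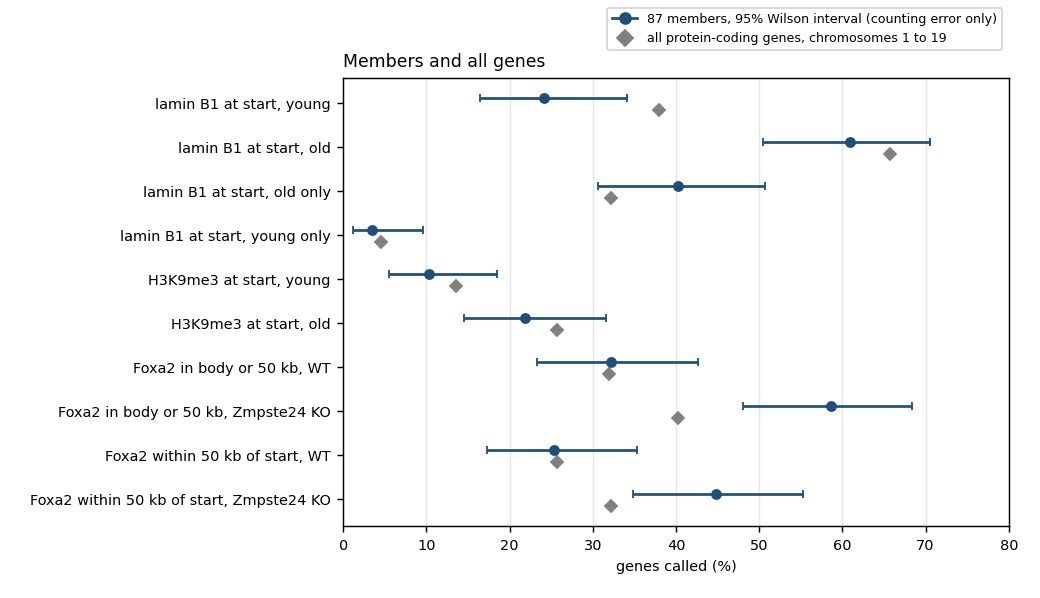
The percent of members (blue, n = 87, bars are 95% Wilson intervals for counting error) and of all protein-coding genes (grey) that met each criterion is shown on the horizontal axis. Members lie below all genes for lamin B1 in young livers (24.1% against 38.0%) and above them for a Foxa2 site in Zmpste24 KO livers (58.6% against 40.2%), and the WT Foxa2 shares nearly coincide.

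By their start sites, the 8 genes of canalicular export fell into 3 states of lamin B1. Abcb11 (chr2:69238282-69342616), which encodes the bile salt export pump, was in no region of the 4 lists, although the closest edge of a domain was 37.4 kb from its start at 3 months and 17.4 kb at 21 months. No Foxa2 site of either genotype lay in its body or within 50 kb. Abcb1a and Abcb1b, the multidrug exporters, and Abcb4, the phosphatidylcholine floppase, lie side by side on chromosome 5 from 8660077 to 8959231, where neither lamin B1 nor H3K9me3 was called at either age. Their nearest old domain was 4960 kb from the start of Abcb1a. In this run a site in the first part of Abcb4, 9.09 kb from its start in the WT list, was called in both genotypes. A site 34.9 kb into Abcb4 was called in WT livers, and the site 12.9 kb into Abcb1a shown above in the mutants.

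Abcc2 (chr19:43782192-43840740), the exporter of bilirubin glucuronides and other conjugates, was wholly outside lamin B1 domains in young livers, with 1518 kb to the closest one. In old livers it lay wholly inside a domain of 2740 kb from 43430001 to 46170000 that contains 52 protein-coding start sites. It was free of H3K9me3 at both ages. All of its Foxa2 sites were in introns, at 10.6 and 29.4 kb from the start in WT livers and at 10.5, 14.1, 15.3 and 29.7 kb in the mutants. The first and last of the mutant sites overlapped the WT sites, and those between them were called in the mutants alone.

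Abcg2 (chr6:58584523-58695676), which exports urate, porphyrins and drugs, had the opposite arrangement. In young livers 95.1% of its body was inside a lamin B1 domain of 190 kb that began 5.48 kb downstream of the start and contained no protein-coding start site. H3K9me3 covered 27.0% of the body at that age. In old livers both values were 0%, and the closest lamin B1 domain was 2995 kb away. A Foxa2 site was called at 26.1 kb in WT livers, and 3 in the mutants at 15.9, 22.7 and 110 kb from the start. None overlapped between genotypes, as for 72.7% of WT and 83.2% of mutant sites on chromosomes 1 to 19.

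Abcg5 and Abcg8, the subunits of the sterol exporter, lie on opposite strands and overlap at their starts, in a span of 42.1 kb, of chromosome 17 (84658234 to 84700333). Both bodies were wholly inside lamin B1 domains at each age (1360 kb in young livers, 3030 kb in old livers) and free of H3K9me3. A single site in an intron of Abcg8 was called in both genotypes. Over the canalicular list, lamin B1 was at the start at both ages for 2 genes, in old livers only for 1 and at neither age for 5, against 33.5%, 32.2% and 29.8% of all genes. The 5 genes at neither age lie in 3 loci. A WT Foxa2 site was found for 6 of 8 and a mutant site for 7 of 8, against 32.0% and 40.2% of all genes. Abcb1b and Abcb4 share a site, as do Abcg5 and Abcg8, and of the 5 loci in the list 4 had a WT and 4 a mutant site.

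**Figure D3:**
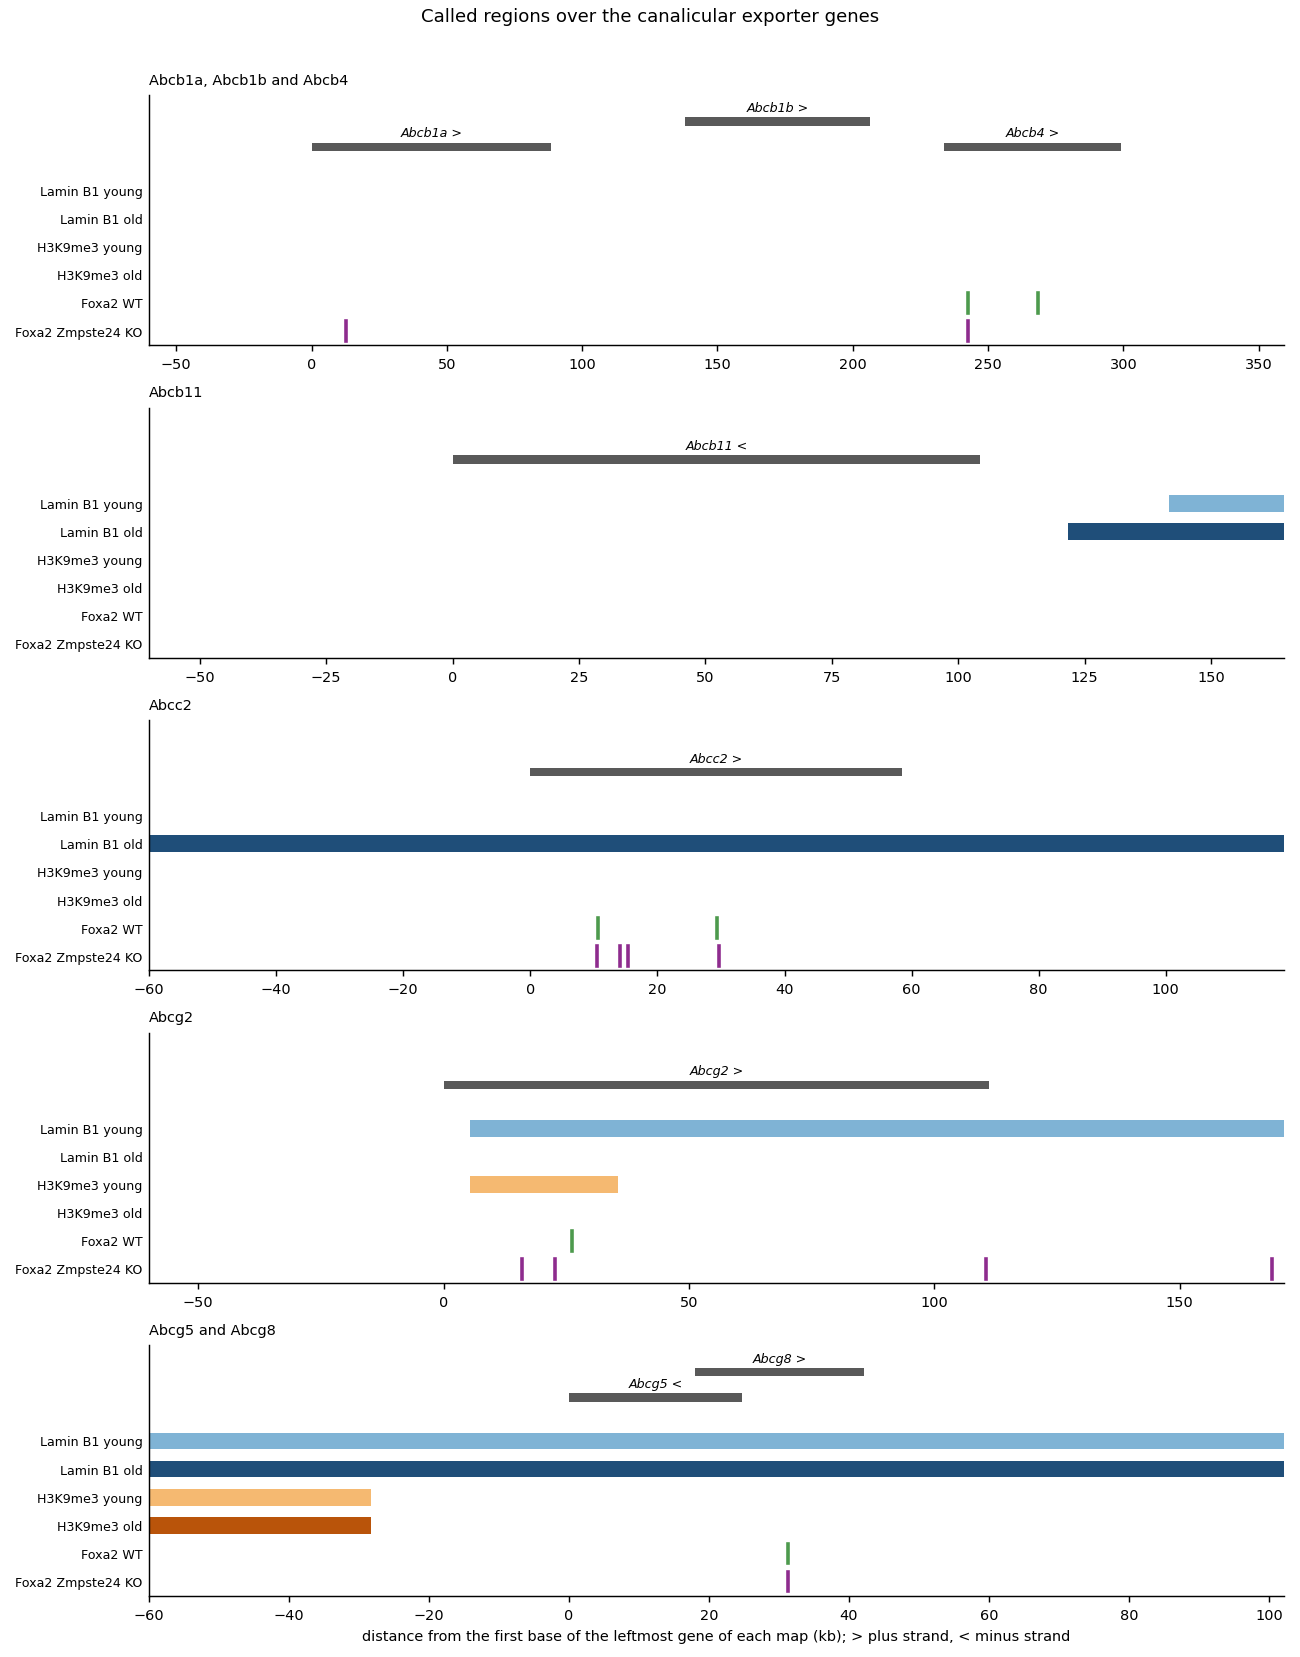
Tracks show lamin B1 and H3K9me3 regions of young and old livers as bars and Foxa2 sites of WT and Zmpste24 KO livers as ticks, over each canalicular exporter gene with flanks, in kb from the first base of the leftmost gene. The old domain spans all of Abcc2 with no young domain, the young domain covers most of Abcg2 with no old domain, and Abcb11 has no feature over its body.

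The bodies of the 5 sinusoidal uptake genes described here were free of lamin B1 in young livers, where domains touched 40.9% of all genes. Slco1b2, Slco1a4 and Slco1a1, the organic anion transporting polypeptides that take up bile salts and drugs from portal blood, were also outside domains in old livers. Slco2b1 (chr7:99657804-99711340) and Slc22a7, the organic anion transporter OAT2, had 0% of the body in young and 100% in old domains. WT livers had no Foxa2 site in the body or within 50 kb of any of the 5 (32.0% of all genes had one). In the mutants a site was called for 4 of them, Slco1b2, Slco1a4, Slco1a1 and Slc22a7, against 40.2% of all genes. The Slco1a4 and Slco1a1 sites are the same site, 55.0 kb downstream of the start of Slco1a1, and it contains TGTTTAC. The Slc22a7 site lay outside the body of that gene, in an intron of Zfp318 and 1.02 kb from the Zfp318 start.

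Slco1b2, Slco1a4 and Slco1a1 belong to a run of 6 Slco1 genes on chromosome 6 (141524368 to 142322981, 799 kb). Lamin B1 covered 0% of this run in young and 0.373% in old livers, where a domain reached the start of Slco1a5. H3K9me3 covered 23.8% in young and 0% in old livers. The young H3K9me3 lay in 2 regions, one of 70.0 kb between Slco1a1 and Slco1a6, and one of 120 kb that held 85.4% of the body of Slco1a5 and 15.1% of Slco1a6. The start of Slco1a6 was inside H3K9me3 in young livers. The 3 Foxa2 sites of the mutants were near Slco1c1 (1.60 kb upstream of its start), in Slco1b2 and between Slco1a4 and Slco1a1. The 2 sites of WT livers were in Slco1a6 and Slco1a5. No site of the run was called in both genotypes, as for 72.7% of WT and 83.2% of mutant sites on chromosomes 1 to 19.

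Of the 7 genes of basolateral and plasma membrane export, 2 had the start inside lamin B1 domains in young livers (38.0% of all genes) and 6 in old livers (65.7%). Abcc3 and Abcc4, which export bile salts and glucuronides back to blood, were wholly inside domains at both ages. Abcc4 (chr14:118482692-118706219) was covered by H3K9me3 over 97.2% of its body in young and 100% in old livers, and its start was reached by H3K9me3 only in old livers. Abcc1, an exporter of glutathione conjugates, had 0% of its body in young and 100% in old domains. Abcc5, a nucleotide exporter, and Abcc6, which is needed for ATP release from hepatocytes, were cut by young domains over 63.1% and 83.6% of their bodies, with the start outside, and were wholly inside old domains. Abcc6 lies beside Abcc8 on chromosome 7 (45967555 to 46180033), and this run was covered by H3K9me3 over 1.15% in young and 100% in old livers. Of the cholesterol exporters, Abca1 (chr4:53030787-53159895) was outside lamin B1 and H3K9me3 at both ages, while Abcg1 had 0% in young and 100% in old livers for both marks.

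Abcc3 had a Foxa2 site in both genotypes, 27.8 kb from its start in the WT list, a second WT site at 31.0 kb and a mutant site 13.5 kb upstream. Abcc4 and Abcc5 each had 1 site per genotype, without overlap (72.7% of all WT and 83.2% of all mutant sites). Abca1 had a mutant site 20.2 kb into the gene and Abcg1 a mutant site at 47.5 kb, with no WT site for either, and none was found for Abcc1 and Abcc6. Over all 10 members of the Abcc subfamily, every start site was inside an old lamin B1 domain, 4 of them also in young livers, against 65.7% and 38.0% of all genes. Abcc12 had 2 WT and 3 mutant sites, of which those 86.5 and 34.7 kb from the start were called in both genotypes.

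The carnitine and organic cation carriers shared 1 state. All 7 genes described here, in 4 loci, had the start inside lamin B1 domains in old livers only, against 32.2% of all genes. Slc22a5, the carnitine transporter of the plasma membrane, Slc22a21 and Slc22a4 lie in a run on chromosome 11 (53864542 to 54028090) that was covered 0% in young and 100% in old livers, by a domain of 940 kb. There was neither H3K9me3 nor a Foxa2 site for these 3 genes. Slc22a3 (chr17:12418960-12507704) and Slc22a2 (chr17:12584132-12628488) lie inside an old domain of 1690 kb. H3K9me3 covered 0% of the body of Slc22a3 in young and 65.0% in old livers, and its start was reached in old livers only. Slc22a2 was covered wholly at both ages.

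Sites close to Slc22a3 belong to its neighbourhood as much as to the gene. The pair called in both genotypes lies 127 and 129 kb downstream of the Slc22a3 start, where the closest protein-coding start is that of Plg, which encodes plasminogen. A WT site was also called 33.8 kb into Slc22a3. Slc22a15 had mutant sites 2.09 kb into the gene and 16.0 kb upstream, and the upstream site contains TGTTTAC 3 times. Slc22a16 was inside H3K9me3 at both ages and had no Foxa2 site.

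The organic anion transporters of the OAT type were divided between domains and a large gap between domains. Of 13 genes, 3 had lamin B1 at the start at both ages, 4 in old livers only and 6 at neither age, against 33.5%, 32.2% and 29.8% of all genes. The 6 genes without lamin B1 are part of a run of 8 on chromosome 19 (7673061 to 8628299, 955 kb), the largest among the members. Slc22a19, Slc22a26, Slc22a27, Slc22a28, Slc22a29 and Slc22a30 were free of lamin B1 and H3K9me3 at both ages. Slc22a8 and Slc22a6, which encode OAT3 and OAT1 of the kidney, stand at the end of the run in a domain that measured 570 kb in young livers and 590 kb in old livers. Domains covered 8.20% of the run at each age.

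No WT Foxa2 site was called in this run or within 50 kb of it, and 7 were called in the mutants. Slc22a26 had 3 of them, 0.229 kb upstream of its start, 11.8 kb into the gene and 27.4 kb upstream. Slc22a29 had 2 sites 34.0 and 44.3 kb upstream, and the remaining sites were downstream of Slc22a19 and at the end of Slc22a8. TGTTTAC was present in 2 of the 7 sites, the one at the start of Slc22a26 and the distal site of Slc22a29. Of the other OAT genes, Slc22a12, the urate transporter URAT1, had 0% of its body in young and 100% in old lamin B1 and H3K9me3 regions, with 1 mutant site. Slc22a13 had the same values for both marks and no Foxa2 site.

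Among the transporters of the Abca subfamily, which move lipids, 3 of 16 start sites had lamin B1 at both ages, 2 in young livers only, 4 in old livers only and 7 at neither age, against 33.5%, 4.49%, 32.2% and 29.8% of all genes. The run of Abca8b, Abca8a, Abca9, Abca6 and Abca5 on chromosome 11 (109932190 to 110337716) was covered by lamin B1 over 29.0% in young and 1.90% in old livers and by H3K9me3 over 22.2% and 0%. A young domain of 110 kb covered 79.6% of Abca8a and 73.0% of Abca9, and both were at 0% in old livers. H3K9me3 covered 40.6% of Abca8b and 48.9% of Abca8a in young livers. This run had 5 Foxa2 sites in each genotype within 50 kb, and 3 of them overlapped, at 0.371 kb from the start of Abca8b, between Abca8b and Abca8a, and within Abca8a. All 3 lie inside the young H3K9me3 region.

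**Figure D4:**
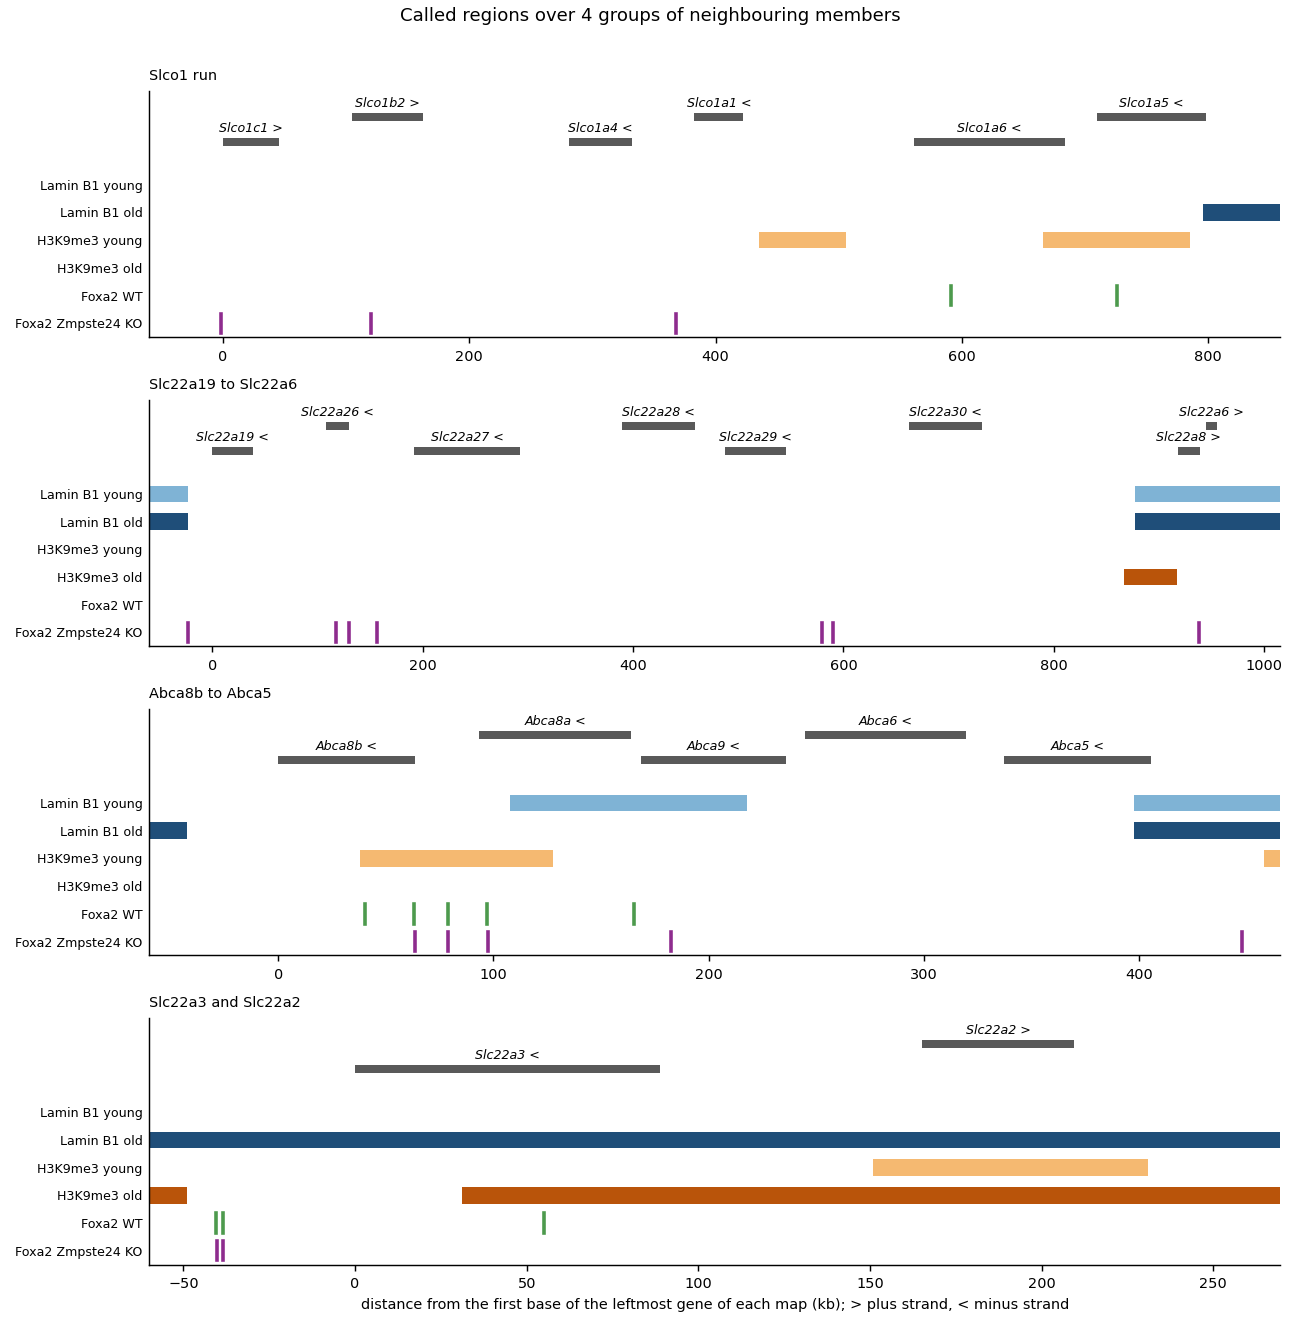
Tracks over 4 groups of neighbouring members show lamin B1 and H3K9me3 regions of young and old livers as bars and Foxa2 sites of WT and Zmpste24 KO livers as ticks, in kb from the first base of the leftmost gene. The Slc22a19 to Slc22a6 run has mutant sites and no WT site, the Slc22a3 and Slc22a2 pair is spanned by an old lamin B1 domain, and H3K9me3 regions over Slco1a5 and Abca8a are present in young livers alone.

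Other Abca genes gave further examples of each state. Abca12, the lipid transporter of the epidermis, had 55.0% of its body in a young domain and 0% in old livers. Abca13, the longest member at 492 kb, was covered by lamin B1 over 7.73% and by H3K9me3 over 66.6% in old livers and by neither in young livers. Abca7 was wholly inside all 4 lists of regions and had a Foxa2 site 11.5 kb upstream of its start in both genotypes. Abca14, Abca15 and Abca16 on chromosome 7 (120203961 to 120544813) were free of lamin B1 and H3K9me3 at both ages and had 2 mutant sites and no WT site. In old livers Abca17 and Abca3, the surfactant lipid transporter, were wholly inside a domain, and 1 mutant site lay 7.84 kb into Abca3.

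Genes for ABC proteins of intracellular membranes and of the cytosol are few, and 65.7% of all start sites lay in old domains. Of the 5 genes for peroxisomal and lysosomal transporters, Abcd3, Abcd4 and Abcb6 had lamin B1 at the start in old livers only, Abcb9 at both ages and Abcd2 at neither. Abcb9 lay in the old domain of 8550 kb, which holds 126 protein-coding start sites. Abcb6 had 4 WT sites and 1 mutant site, all outside its body of 8.68 kb, and the site called in both genotypes has its middle in an exon of Stk16 and Tuba4a. Of the mitochondrial transporters, Abcb8 was inside domains at both ages and Abcb10 in old livers only. The soluble ATPases of translation gave 2 genes inside at both ages (Abcf2 and Abcf3), 1 in old livers only (Abcf1) and 1 at neither (Abce1). Both sulfonylurea receptor genes were in old domains, Abcc9 at both ages and Abcc8 in old livers only.

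The members not yet described were also divided between these states. Abca2, Slc22a17 and Slc22a20 were wholly inside lamin B1 domains at both ages, and each had WT Foxa2 sites, 1, 1 and 2, with no mutant site. Slco4a1, Abcg4 and Slc22a18 had 0% of the body in young and 100% in old domains, and Slc22a18 was inside H3K9me3 at both ages and had 2 WT sites. Slco3a1, Slc22a23 and Slco6d1 were outside domains at both ages. H3K9me3 covered 38.6% of Slco6d1 in young and 0% in old livers. Slco3a1 had 1 and Slc22a23 had 2 intronic sites in the mutants, and neither had a WT site.

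A Foxa2 site in the gene body or within 50 kb was called for 28 members (32.2%, 95% Wilson interval 23.3 to 42.6%) in WT livers, against 32.0% of all genes. In the mutants 51 members (58.6%, interval 48.1 to 68.4%) had a site, against 40.2% of all genes. There were 20 members with a site in both genotypes (20.2% of all genes), 8 with a WT site only (11.8%), 31 with a mutant site only (20.0%) and 28 with neither (48.0%). Because long genes have longer windows, the count was repeated for 50 kb on either side of the start. It gave 22 members in WT livers (25.7% of all genes) and 39 in the mutants (44.8% of members, interval 34.8 to 55.3%, against 32.2% of all genes). With only the sites wider than the median of their list, 18 members had a WT site (18.3% of all genes) and 21 a mutant site (22.5% of all genes), so the mutant share of members was then near that of all genes.

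The number of sites differed between genotypes in about the same ratio as around all protein-coding genes. The windows of members contained 42 WT and 62 mutant sites, or 3.14 and 4.63 per Mb, a ratio of 1.48, whereas the windows of all protein-coding genes contained 2.59 and 3.79 per Mb, a ratio of 1.46. In WT livers 15 members had exactly 1 site (21.9% of all genes) and 13 had 2 or more (10.1%). In the mutants 38 had exactly 1 site (43.7%, interval 33.7 to 54.1%, against 26.5% of all genes) and 13 had 2 or more (13.7%). Members with most sites were Abca8a, Abca8b and Abcb6 with 4 WT sites each, counting sites shared by Abca8a and Abca8b for both, and Abca8a and Abcc2 with 4 mutant sites each. Slco2a1 had 3 sites in each genotype, and all 3 overlapped.

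Of the WT sites near members, 17 of 42 (40.5%) overlapped a mutant site, against 27.3% of all WT sites on chromosomes 1 to 19. From the mutant list, 17 of 62 (27.4%) overlapped a WT site, against 16.8%. These 17 sites belonged to 13 members, among them Abcg5, Abcg8, Abcc2, Abcb4, Abcc3 and Slco2a1. Sites inside the body of a member numbered 23 in WT and 36 in mutant livers, and the closest protein-coding start was that of a member for 21 WT and 43 mutant sites (69.4%). Within 10 kb of the start of the nearest member lay 6 WT and 9 mutant sites, so most were distal to member starts. Some of these lay at the start of another gene, such as WT sites 0.0390 kb from that of Slc4a2 and 0.0430 kb from that of Plg.

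**Figure D5:**
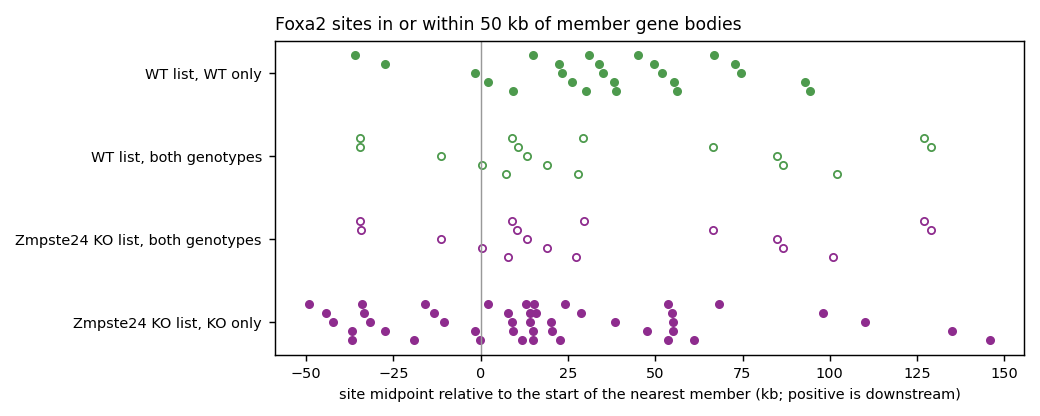
Each point is a Foxa2 site placed by the distance of its middle from the start of the nearest member (kb, positive downstream), with rows for the WT and Zmpste24 KO lists and open symbols for sites that overlap between genotypes. Points spread from 49.3 kb upstream to 146 kb downstream, and few lie at the start in either list.

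The forkhead word TGTTTAC was present on either strand in 15 of 42 WT sites near members (35.7%) and in 22 of 62 mutant sites (35.5%), against 27.8% and 23.4% of all sites on chromosomes 1 to 19. With any of the 4 words, the values were 27 (64.3%) and 40 (64.5%), against 62.4% and 58.6%. In windows of 300 bp around the middle of each site, TGTTTAC was found in 7 WT (16.7%, against 14.0%) and 13 mutant sites (21.0%, against 11.1%).

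Positions of Foxa2 sites were then set against lamin B1. These come from different mice, so the comparison describes positions and not the state of a site in the mutants. Start sites of 31 members lay outside lamin B1 domains at both ages. Of these members, 22 had a mutant site (71.0%, 95% Wilson interval 53.4 to 83.9%), against 31.1% of all genes in that state. A WT site was found for 6 of them (19.4%, against 18.2%). The state refers to the start alone. Young domains covered 95.1% of the body of Abcg2, 73.0% of Abca9 and 52.9% of Abcb5, and each of these had a mutant site. In 17 of the 31 a site was called in the mutants only (54.8%, interval 37.8 to 70.8%, against 19.4%). Neighbours shared sites and gaps between domains, and the 31 members lay in 16 loci, of which 12 had a mutant and 4 a WT site. Their median length was 69.7 kb, against 13.4 kb for all genes in that state. With 50 kb on either side of the start, 15 had a mutant site (48.4%, interval 32.0 to 65.2%, against 22.8%) and 4 a WT site (12.9%, against 13.3%).

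The same counts were made for the other states, and differences between states were not tested. Of 18 members with lamin B1 at the start at both ages, 12 had a WT site (66.7%, interval 43.7 to 83.7%, against 41.3% of all genes in that state) and 11 a mutant site (61.1%, against 46.0%). Of 35 with lamin B1 at the start in old livers only, 9 had a WT site (25.7%, against 35.2%) and 15 a mutant site (42.9%, against 41.7%). Lamin B1 was at the start in young livers only for Abca12, Slco4c1 and Abca8a. All 3 had a mutant site (47.3% of all genes in that state), and 1 had a WT site (31.3%). Counted by sites, 32 of 42 WT sites near members (76.2%) were inside old domains, against 64.1% of all WT sites, and 33 of 62 mutant sites (53.2%), against 49.9%.

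A list of 12 other transporters that are no members was fixed, mainly for liver and biliary epithelium. Lamin B1 was at the start at both ages for 6, in old livers only for 4 and at neither age for 2, against 33.5%, 32.2% and 29.8% of all genes. The list also holds Tap1 and Tap2, which were inside domains in old livers only and had no Foxa2 site. Slc10a1, the sodium-dependent bile salt carrier, had 0% of its body in young and 100% in old domains, as did the members Slco2b1 and Slc22a7. Slc10a1 had 3 WT sites and 1 mutant site within 50 kb. Slc51a and Slc51b, which form the basolateral bile salt exporter, were inside domains at both ages and had 1 WT site each and no mutant site. WT sites were found for 5 and mutant sites for 6 of the 12, against 32.0% and 40.2% of all genes. Among the 87 members the counts were 28 and 51.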

How the data were processed

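Lamin B1 and H3K9me3 of young and old livers and Foxa2 of WT and Zmpste24 KO livers were analysed as 6 lists of genome positions (chromosome, start, end), which the authors deposited with no count, signal or score. Per the labels and methods, the authors used BWA to align reads to mm10, discarded duplicates (Picard) and reads without a unique position, merged replicates, called lamin B1 domains with Epic, a version of SICER, in 10 kb windows, and called Foxa2 sites with PeakSeq against input after mutant reads were downsampled to the WT number. The caller of the H3K9me3 regions is not given in the sources used here. H3K9me2 was not analysed here.

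Ends of the domains are the last base of a 10 kb window, and all positions are given with the first base as 1. Genes came from GENCODE vM21 and sequence from GRCm38.p6. An overlap needed at least 1 bp, members within 200 kb formed a locus, and percentages over all genes used 20807 protein-coding genes. Wilson intervals (95%) cover counting error only, since merged calls hold no spread between mice, and no test was run. They treat members as separate, although neighbours can share domains and sites. Overlap and locus code was tested on simulated data, and the word search was not part of that test. Python 3.11.15, numpy 2.4.6, scipy 1.17.1 and matplotlib 3.10.9 were used.

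Members and lists were chosen with earlier results of these data known. Genes named were those of the export and uptake lists, of runs of 3 or more neighbours, the 5 longest with a change of lamin B1 body coverage or of H3K9me3 at the start in each direction, and those with most or with overlapping Foxa2 sites. For 1 member, counted in the totals, individual values are not reported here. Other members named as examples were chosen after their values were seen. Alternatives varied the start site, the flank, the length of regions, the overlap and the word.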

Additional observations from a re-analysis of the deposited data

How the results depend on the processing

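Of 64 alternatives over 18 results, 46 stayed within 1.5 times the value given. For H3K9me3 in young livers, 15 of 87 members (15.3% of all genes) were counted with any annotated transcript start, against 9 (13.6%) by the gene start. When at least 50% of the body had to be covered, 10 members (13.5% of all genes) were counted, against 17 (17.4%) with any overlap. Members with a WT Foxa2 site numbered 16 (17.1% of all genes) when the member had to be the closest gene and 18 (18.3%) with sites wider than the median, and with a mutant site 33 (23.8%) and 21 (22.5%). The last of these, 21 of 87, was near the share of all genes. A flank of 10 kb gave 33 members with a mutant site (21.0% of all genes). It left 26 of the 42 WT and 39 of the 62 mutant sites. Of the sites left, 11 from each list overlapped. In young lamin B1 domains lay 9 WT and 11 mutant sites, and in old domains 17 and 19. TGTTTAC was found in 7 WT and 13 mutant sites in windows of 300 bp, TGTTTAC or TGTTTGC in 23 WT sites, and any of 4 words, a set added after the data were seen, in 27 WT and 40 mutant sites. Fewer sites or shorter windows were searched in the smaller counts by construction. No paired analysis was possible because replicates were merged before calling, and neither leaving out replicates nor a stricter score could be tried, for the same reason. A called or uncalled region does not measure how far its signal was from the threshold.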

Other observations

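Neighbouring members did not always share a lamin B1 state. Of 15 loci with 2 or more members, 8 had all starts in the same state. In the pair Abcc5 and Abcf3 on chromosome 16, the start of Abcf3 was inside domains at both ages and that of Abcc5 in old livers only, 6.39 kb from the young domain. Abcc10, which was inside lamin B1 and H3K9me3 at both ages, stands beside Slc22a7, whose start was 18.5 kb outside the young domain. The start of Slc22a14 was inside domains at both ages and that of Slc22a13, which lies within the annotated span of Slc22a14, in old livers only. Slco4c1 was wholly inside a young domain of 130 kb in which it is the only protein-coding start, and Slco6c1 next to it was outside at both ages. Abcb5, a transporter of pigment cells, was covered over 52.9% by lamin B1 in young livers and 0% in old livers, while H3K9me3 covered 52.9% at both ages. Abcg3 was wholly inside H3K9me3 at both ages and had lamin B1 at neither.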
